A study of Mus musculus with 8 samples.

Results

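The genes described here are the SR proteins, the heterogeneous nuclear ribonucleoproteins (hnRNPs) and the CLK splicing kinases of the mouse. They were taken by symbol: Srsf followed by a digit, Tra2a and Tra2b, every symbol that starts with Hnrnp, and Clk1 to Clk4. The rule found 37 of the 24344 distinct gene symbols in the table, namely 11 SRSF genes, 2 TRA2 genes, 20 hnRNP genes and 4 CLK genes, and none of them stood on repeated rows. The libraries come from homogenised occipital cortex, where the visual areas lie, taken from mice of the C57BL/6J strain on postnatal day 35. Of the 8 libraries, 4 are from mice fasted for 48 h and 4 from mice fed ad libitum, and all other labels are shared. Levels are FPKM, fragment counts scaled to transcript length and to the mapped total of the library, so that they can be set side by side between genes. A difference is given as a log2 change, fasted over ad libitum, of FPKM + 1.

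SR proteins bind exonic sequences of nascent transcripts through RNA recognition motifs and recruit the spliceosome through a domain rich in arginine and serine, the RS domain. Kinases of the CLK and SRPK families phosphorylate that domain, which sets where SR proteins sit in the cell and whether they can act. hnRNPs are abundant nuclear RNA-binding proteins that package nascent transcripts and often oppose SR proteins in the choice of exons. Many genes of both families are known to limit their own output by splicing in an exon or keeping an intron that sends the transcript to nonsense-mediated decay or holds it in the nucleus. A level summed over a gene does not separate such transcripts from those that encode the full protein.

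Totals of FPKM over distinct symbols ran from 255458.6 to 281889.6 in fasted libraries and from 253470.2 to 360010.3 in ad libitum libraries. The highest total, that of ad libitum replicate 2, went with a share of 24.08% in its 10 most abundant rows, against 3.98% to 13.78% in the other libraries, and its first row was the microRNA gene Mir684-1. From the size of the lowest steps in genes with a single annotated transcript, depth was estimated at 17100000 to 21300000 fragments per library. That search was held to depths of 5000000 to 60000000 fragments and is rough. At this depth the lowest value of the 37 genes, that of Srsf4, stood for about 172 fragments. Even replicate numbers held Xist and almost no Y-linked transcripts in both groups and odd numbers the reverse, except that ad libitum replicate 3 held intermediate levels of both, with Xist at 32.2 FPKM and Ddx3y at 5.67 FPKM. Calls and counts that changed when it was left out are also given without it. The labels do not say whether the libraries come from separate animals, so the tests measure the spread between libraries.

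Fasted cortex had higher levels of Srsf5, Srsf2, Tra2b and Hnrnpa0, and lower levels of Hnrnpc, Hnrnph1, Hnrnph3, Hnrnpa1, Hnrnpa2b1, Hnrnpm, Tra2a and Clk3. All changes were modest, between -0.47 and 0.34 on the log2 scale, or 0.722-fold to 1.26-fold. The remaining 25 genes did not pass the test. All 37 genes passed the filter on low values and entered a fit over 12377 genes, in which limma p-values were adjusted by Benjamini-Hochberg and calls made below 0.05. Of the 37 genes 12 were called, or 32.4%, while 25.8% of all tested genes were called. The 4 higher genes make up 10.8%, against 9.56% called higher among all tested genes, and the 8 lower genes 21.6%, against 16.3% called lower. For 15 of the 37 genes the groups held separate ranges, or 40.5%, against 27.6% of all tested genes. The shares of called genes thus lay near those of the whole table, and the list as a whole had a median log2 change of 0.01, against -0.02 over all tested genes. Of the 11 SRSF genes limma called 2 higher and 0 lower, and 3 higher and 1 lower with the replicate block. Without ad libitum replicate 3 the SRSF counts were 1 higher and 0 lower. At an unadjusted limma p under 0.05 the SRSF genes numbered 5 of 11, against 4773 of the 12377 tested genes. Of the 20 hnRNP genes 1 was called higher and 6 lower, and 2 higher and 3 lower with equal-sum scaling. Over all 12377 tested genes equal-sum scaling gave 1585 higher and 534 lower, against 1183 and 2015 without scaling. With the replicate block the hnRNP counts were 2 higher and 6 lower, and without ad libitum replicate 3 they were 0 higher and 5 lower. Median log2 changes were 0.07 for the SRSF genes and -0.04 for the hnRNP genes.

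**Figure D1:**
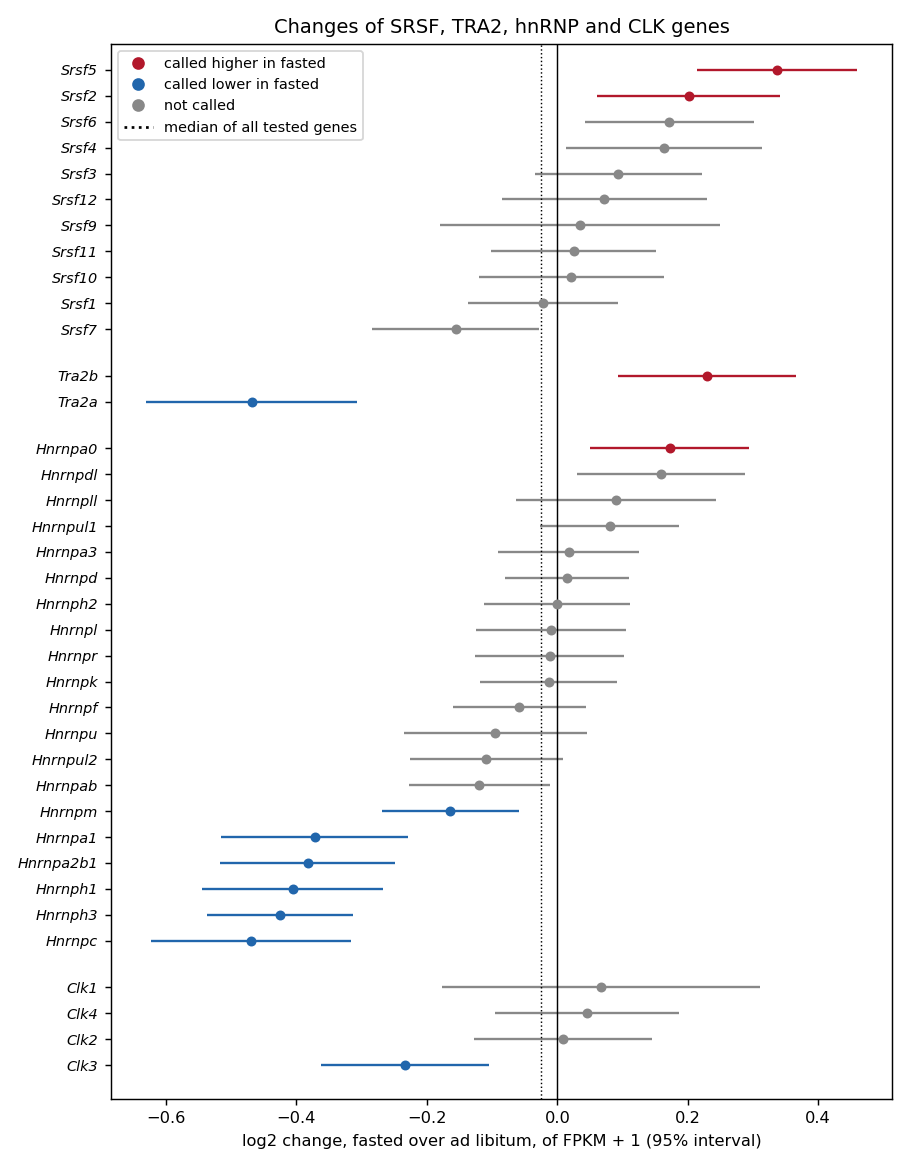
Log2 change (fasted over ad libitum, of FPKM + 1) of each of the 37 genes, ordered within the SRSF, TRA2, hnRNP and CLK families; points are estimates from 4 libraries a group, bars 95% intervals, and the dotted line is the median of all tested genes. Tra2a and the 5 lowest hnRNP genes lie between -0.47 and -0.37, Srsf5 stands highest at 0.34, and most other genes lie near 0.

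The balance of directions depended on how libraries were scaled. With median-ratio scaling 7 of the 37 genes were higher and 7 lower, with quantile normalization 6 and 7, and with equal-sum scaling 6 and 4. Correcting each library for transcript length and GC content gave 8 and 8. Over all tested genes the share of higher genes among those called was 37.0% without scaling and 47.7%, 48.4%, 74.8% and 50.4% under these settings. Blocking on replicate number, 6 of the 37 genes were higher and 9 lower, against 1773 and 2733 of the 12377 tested genes. Hnrnpc, Hnrnph1, Hnrnph3, Tra2a and Srsf5 were called in all 21 settings tried, those without each library in turn included. Without ad libitum replicate 3 the counts were 2 higher and 6 lower, and the genes that lost their call were Srsf2, Hnrnpa0, Hnrnpm and Clk3. That fit called 841 higher and 1406 lower over all tested genes.

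**Figure D2:**
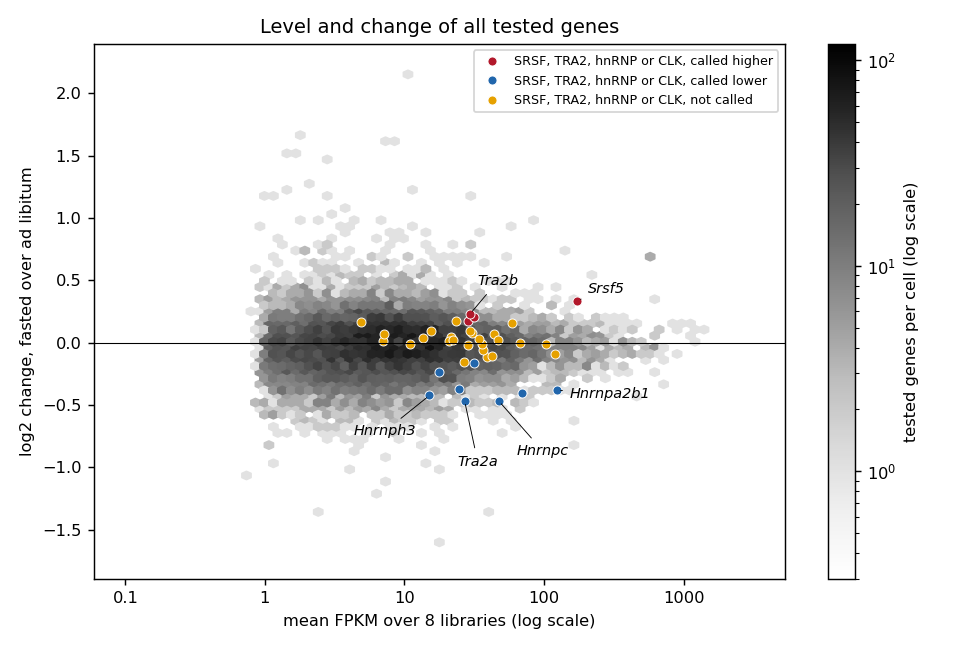
Log2 change (fasted over ad libitum) against the mean FPKM over the 8 libraries (log scale) for all tested genes, shaded by density, with the SRSF, TRA2, hnRNP and CLK genes as coloured points. The coloured points lie to the right, with a median of 30.7 FPKM in fasted cortex, and Srsf5 at 0.34 and Hnrnpc at -0.47 mark their range.

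Among SR proteins, Srsf5 was the most abundant gene of all 37 in both groups. It encodes an SR protein of the nucleus that is known for binding exonic enhancers and for its rapid induction by growth signals. Its level was 184.7, 198.1, 204.6 and 185.5 FPKM in fasted libraries, against 154.6, 149.3, 157.7 and 149.3 FPKM in ad libitum libraries. Every fasted library stood above every ad libitum library. The means were 193.2 ± 9.76 FPKM in fasted and 152.7 ± 4.18 FPKM in ad libitum cortex (SD, n = 4 each), a difference of 26.5%. Its log2 change was 0.34 with SE 0.06 (limma adjusted p = 0.00177), and adjusted p = 0.00681 without ad libitum replicate 3. The gene lies at chromosome 12, 80945504 to 80950507, in GRCm38 coordinates of GENCODE M21. Cirbp and Rbm3, whose RNA-binding proteins are induced by cold, were at 72.2 and 110.0 FPKM in fasted and 37.2 and 55.2 FPKM in ad libitum cortex, log2 changes of 0.94 and 0.98.

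Srsf2 (chromosome 11, 116849901 to 116853094) encodes the SR protein SC35, a marker of nuclear speckles. Its level was 33.46, 34.15, 32.83 and 35.42 FPKM in fasted libraries, against 32.17, 30.75, 28.78 and 26.2 FPKM in ad libitum libraries. The groups did not overlap, but the lowest fasted and the highest ad libitum library differed by little. Its log2 change was 0.20 with SE 0.06 (limma adjusted p = 0.0384). The call ended when any library other than ad libitum replicate 1 was left out, with adjusted p from 0.0511 to 0.0989 for those 7, and in the fit that kept low genes (adjusted p = 0.0601). Exons of Mettl23 and Mfsd11 on the opposite strand cover 15.6% and 9.7% of its exon bases, and whether fragments were assigned by strand is not given in the sources used here. Mettl23 was at 4.39 FPKM in fasted and 6.04 FPKM in ad libitum cortex.

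Srsf6, whose SR protein can activate or repress an exon, lay just outside the threshold (limma adjusted p = 0.0521). It had 24.88, 24.72, 25.77 and 24.68 FPKM in fasted libraries, against 23.01, 22.98, 22.97 and 19.59 FPKM in ad libitum libraries. No fasted library reached down to the ad libitum range, and ad libitum replicate 4 stood below the other fed libraries. The log2 change was 0.17, and it passed with replicates blocked (adjusted p = 0.0187). Srsf7, known for its role in messenger RNA export, had the only negative difference among SRSF genes apart from that of Srsf1. Its values were 24.44, 23.16, 26.79 and 26.03 FPKM in fasted and 27.66, 27.16, 27.39 and 30.03 FPKM in ad libitum libraries. The groups did not overlap, the log2 change was -0.16 (limma adjusted p = 0.0706), and with the replicate block adjusted p was 0.0218.

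The other 7 SRSF genes overlapped between the groups and were not called. Srsf1, the founding member of the family, averaged 28.5 ± 1.42 FPKM in fasted and 29.0 ± 1.07 FPKM in ad libitum cortex (SD, n = 4 each), with a log2 change of -0.02 and a 95% interval from -0.14 to 0.09. Srsf3, which encodes the smallest SR protein, averaged 30.7 FPKM in fasted and 28.7 FPKM in ad libitum cortex, a log2 change of 0.09. Srsf10, whose protein represses splicing when dephosphorylated during heat shock, averaged 22.5 FPKM in fasted and 22.1 FPKM in ad libitum cortex, and Srsf11 34.4 FPKM in fasted and 33.8 FPKM in ad libitum cortex. Srsf9 averaged 13.8 FPKM in fasted and 13.5 FPKM in ad libitum cortex, and its fed libraries spread widely, from 10.8 to 15.7 FPKM. Srsf12 averaged 7.30 FPKM in fasted and 6.90 FPKM in ad libitum cortex. Srsf4 had the lowest level of the family, 5.24 FPKM in fasted and 4.59 FPKM in ad libitum cortex. Srsf4 had a log2 change of 0.16 (limma adjusted p = 0.102), and 43.0% of its exon bases are shared with a transcript on the opposite strand. The summed level of the 11 SRSF genes was 412.7 to 436.6 FPKM in fasted and 360.1 to 379.1 FPKM in ad libitum libraries, without overlap. Srsf5 alone makes up much of that sum, and without Srsf5 the sums of the remaining SRSF genes overlap between the groups.

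Tra2a and Tra2b encode the vertebrate counterparts of the fly splicing factor Transformer-2. They are SR-like proteins with an RS domain on each side of the RNA recognition motif, and in human cells TRA2B is known to act on the splicing of the TRA2A transcript. The genes moved in opposite directions. Tra2a had 22.43, 19.87, 23.95 and 23.63 FPKM in fasted libraries, against 30.01, 29.3, 35.38 and 31.23 FPKM in ad libitum libraries. All fasted libraries lay below all fed ones, and the highest fed value was in ad libitum replicate 3. Its log2 change was -0.47 with SE 0.07 (limma adjusted p = 0.00133), and adjusted p was 0.00482 without that library. Tra2b had 33.28, 31.17, 32.67 and 30.48 FPKM in fasted libraries, against 26.17, 26.55, 30.44 and 25.3 FPKM in ad libitum libraries. The lowest fasted and the highest fed library, again ad libitum replicate 3, nearly touched. Its log2 change was 0.23 with SE 0.06 (limma adjusted p = 0.02005), and adjusted p was 0.0086 without ad libitum replicate 3. Leaving out fasted replicate 1 or 3 or ad libitum replicate 1 or 2 ended the call, with adjusted p of 0.0537, 0.0558, 0.0519 and 0.0525.

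The ratio of Tra2b to Tra2a within a library is unchanged by a scaling factor per library, but not by corrections that differ between genes. It was 1.48, 1.57, 1.36 and 1.29 in fasted libraries, against 0.872, 0.906, 0.860 and 0.810 in ad libitum libraries, so that Tra2b was the more abundant gene of the pair in every fasted library and Tra2a in every fed library. The ratio averaged 1.43 ± 0.124 in fasted and 0.862 ± 0.0398 in ad libitum cortex (SD, n = 4 each). The pair was singled out after its values were seen, and the ratio is given as a description.

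The sequences before the start sites of these genes are shown because the genes of the pair moved apart. Each line gives the 250 bases before the RefSeq start, 5′ to 3′ on the gene's own strand (GRCm38.p6). Capitals mark the motifs found, each searched on both strands. They are the CCAAT box by those letters, the GC box with the letters GGGCGG, the E-box with the letters CACGTG and the TATA box with the letters TATAAA. The cAMP response element was searched as TGACGTCA, the core of an ETS site as CCGGAAG, and a pair of heat shock units as GAANNTTC. The Tra2a window is chr6:49264053-49264302 on the minus strand and the Tra2b window, added after its values were seen, chr16:22266006-22266255 on the minus strand.
Tra2a: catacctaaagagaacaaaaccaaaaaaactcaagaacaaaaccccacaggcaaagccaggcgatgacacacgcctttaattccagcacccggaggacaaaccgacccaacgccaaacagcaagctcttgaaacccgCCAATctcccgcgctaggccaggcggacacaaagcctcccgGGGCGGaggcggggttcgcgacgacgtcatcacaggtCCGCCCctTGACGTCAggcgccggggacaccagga
Tra2b: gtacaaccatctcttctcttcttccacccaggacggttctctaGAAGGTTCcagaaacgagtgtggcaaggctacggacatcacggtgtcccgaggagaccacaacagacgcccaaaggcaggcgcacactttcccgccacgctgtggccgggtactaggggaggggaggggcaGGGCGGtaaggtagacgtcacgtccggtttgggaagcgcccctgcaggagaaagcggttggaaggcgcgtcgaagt
The Tra2a window holds a CCAAT box, a GC box on each strand and a cAMP response element, and the Tra2b window a GC box and a pair of heat shock units.

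**Figure D3:**
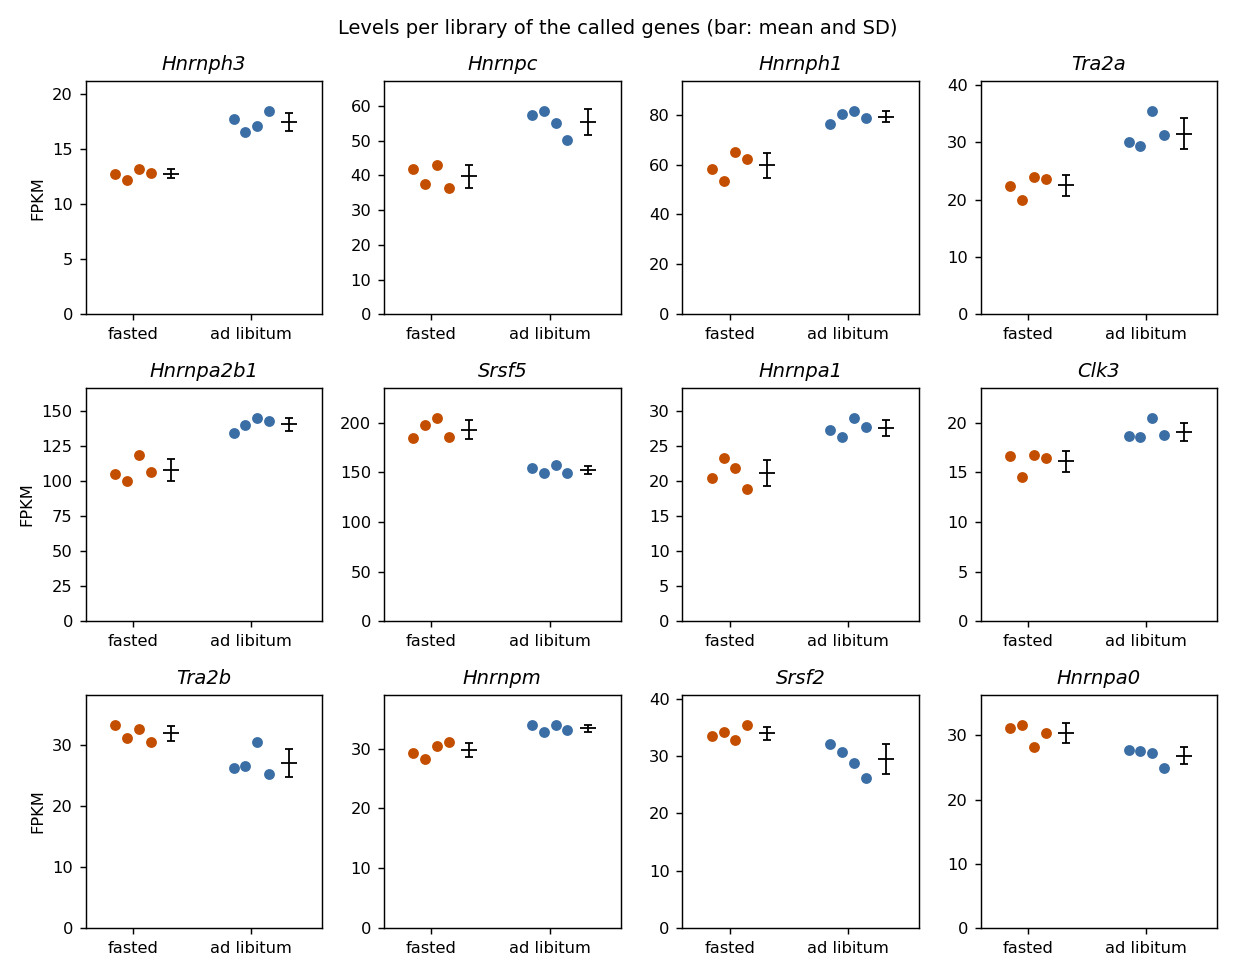
FPKM of the 12 called genes in each fasted and ad libitum library, with the mean and SD of 4 libraries beside the points and axes that start at 0. In every panel the groups do not overlap; relative to its level the gap is widest for Hnrnph3, at 12.2 to 13.2 FPKM in fasted and 16.6 to 18.4 FPKM in ad libitum libraries, and narrow for Tra2b, Srsf2 and Hnrnpa0.

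Among the 20 hnRNP genes 7 were called. Hnrnph1 and Hnrnph3 encode hnRNPs of the H and F family, which bind runs of guanines and regulate nearby splice sites. Hnrnph3 (chromosome 10, 63014664 to 63024217) was at 12.77, 12.2, 13.16 and 12.83 FPKM in fasted libraries, against 17.76, 16.56, 17.07 and 18.4 FPKM in ad libitum libraries. Within each group the libraries lay close together, and the difference of the means was -27.0%. Its log2 change of -0.42 with SE 0.05 had the smallest adjusted p of the 37 genes (limma, 0.00032). Hnrnph1 (chromosome 11, 50376990 to 50386528) was at 58.22, 53.52, 64.88 and 62.03 FPKM in fasted libraries, against 76.34, 80.39, 81.25 and 78.76 FPKM in ad libitum libraries. The groups were far apart relative to their spread, and the log2 change was -0.41 (limma adjusted p = 0.00126). The X-linked paralogue Hnrnph2 stood at 67.6 ± 1.94 FPKM in fasted and 67.7 ± 2.89 FPKM in ad libitum cortex (SD, n = 4 each), a log2 change of 0.00 with a 95% interval from -0.11 to 0.11. Hnrnpf, of the same family, averaged 35.9 FPKM in fasted and 37.5 FPKM in ad libitum cortex and was not called (limma adjusted p = 0.387).

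The A and B family holds the best known hnRNPs, which bind many transcripts through paired RNA recognition motifs and a glycine-rich tail. Hnrnpa2b1 (chromosome 6, 51460932 to 51469894) was at 105.0, 100.3, 118.5 and 106.4 FPKM in fasted libraries, against 134.2, 139.8, 144.7 and 142.8 FPKM in ad libitum libraries. It was the second most abundant of the 37 genes in fed cortex, and no fasted library reached the fed range. The log2 change was -0.38 with SE 0.06 (limma adjusted p = 0.00146). Hnrnpa1 (chromosome 15, 103240432 to 103246692) was at 20.52, 23.34, 21.9 and 18.88 FPKM in fasted libraries, against 27.35, 26.36, 29.0 and 27.77 FPKM in ad libitum libraries. Again all fasted libraries were lower, with a log2 change of -0.37 (limma adjusted p = 0.00229). Hnrnpa1 is known for many processed copies in the genome, and how fragments were shared among copies is not given in the sources used here. With equal-sum scaling neither gene was called, with log2 changes of -0.26 for Hnrnpa2b1 and -0.25 for Hnrnpa1 (adjusted p = 0.0642 and 0.0905).

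Hnrnpa0, a single-exon gene in the annotation whose protein binds AU-rich elements, differed in the other direction. It was at 31.18, 31.61, 28.21 and 30.4 FPKM in fasted libraries, against 27.66, 27.54, 27.26 and 24.85 FPKM in ad libitum libraries. The lowest fasted library was only slightly above the highest fed one, and the log2 change was 0.17 with SE 0.06 (limma adjusted p = 0.0411). This call was the least stable of the 12: it ended when any library but fasted replicate 3 was dropped (7 fits, adjusted p 0.0564 to 0.103), with no filter (0.0571), with a term for odd and even replicate numbers (0.0520) and without trend and robust moderation (0.0530). Hnrnpa3 was at 47.0 ± 1.51 FPKM in fasted and 46.5 ± 1.63 FPKM in ad libitum cortex (SD, n = 4 each; limma adjusted p = 0.821). Hnrnpab averaged 37.3 FPKM in fasted and 40.6 FPKM in ad libitum cortex without overlap, a log2 change of -0.12 that was not called (limma adjusted p = 0.0951).

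**Figure D4:**
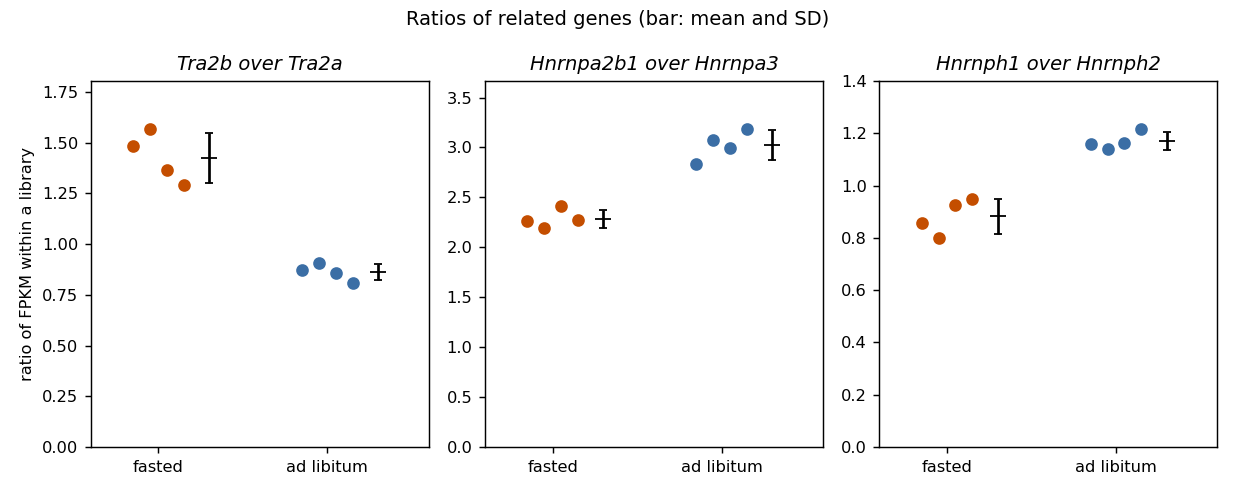
Ratios of FPKM of related genes within each fasted and ad libitum library, with the mean and SD of 4 libraries; axes start at 0. Tra2b over Tra2a is 1.29 to 1.57 in fasted and 0.810 to 0.906 in ad libitum libraries, Hnrnpa2b1 over Hnrnpa3 2.19 to 2.41 in fasted and 2.83 to 3.19 in ad libitum libraries, and Hnrnph1 over Hnrnph2 0.798 to 0.948 in fasted and 1.14 to 1.22 in ad libitum libraries.

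Some other ratios within a library, likewise unchanged by a scaling factor per library, also differed between the groups. Hnrnpa2b1 over Hnrnpa3 averaged 2.285 ± 0.0897 in fasted and 3.025 ± 0.149 in ad libitum cortex (SD, n = 4 each). Hnrnph1 over Hnrnph2 averaged 0.882 ± 0.0679 in fasted and 1.17 ± 0.0333 in ad libitum cortex (SD, n = 4 each), without overlap. The partner genes were chosen after their values were seen, so these ratios are descriptions. Clk4 over Clk1 averaged 0.493 ± 0.0525 in fasted and 0.498 ± 0.0323 in ad libitum cortex (SD, n = 4 each), and the groups overlapped.

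Hnrnpc encodes the C proteins, which form a tetramer that measures the length of nascent transcripts and binds runs of uridines. It had the most negative log2 change of the 37 genes, -0.47 with SE 0.07 (limma adjusted p = 0.000977). Its level was 41.95, 37.57, 43.05 and 36.22 FPKM in fasted libraries, against 57.46, 58.38, 55.17 and 50.28 FPKM in ad libitum libraries. Even the lowest fed library stood well above the fasted ones. Without ad libitum replicate 3 all of Hnrnpc, Hnrnph1, Hnrnph3, Hnrnpa2b1 and Hnrnpa1 were still called, with limma adjusted p from 0.0018 to 0.0105. Hnrnpm (chromosome 17, 33646233 to 33686860), whose protein regulates exon choice at sites rich in guanine and uridine, was at 29.25, 28.3, 30.42 and 31.06 FPKM in fasted libraries, against 33.96, 32.79, 33.96 and 33.08 FPKM in ad libitum libraries. The groups did not overlap, with a log2 change of -0.16 (limma adjusted p = 0.0268). That call ended without fasted replicate 1 or 2 or ad libitum replicate 1 or 3 (adjusted p = 0.0642, 0.0712, 0.0660 and 0.0796) and with median-ratio, quantile and equal-sum scaling (0.0636, 0.0650 and 0.831). Exons of March2 on the same strand share 14.7% of its exon bases.

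The window before the start of Hnrnpc is shown as that of the hnRNP gene with the largest change. It lies at chr14:52104022-52104271 on the minus strand (RefSeq, GRCm38.p6), with the same motifs in capitals.
Hnrnpc: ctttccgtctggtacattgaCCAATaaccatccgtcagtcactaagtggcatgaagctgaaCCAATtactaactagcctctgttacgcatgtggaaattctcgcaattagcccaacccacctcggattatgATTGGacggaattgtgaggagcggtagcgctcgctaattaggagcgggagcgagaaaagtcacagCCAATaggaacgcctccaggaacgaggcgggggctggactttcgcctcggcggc
The window holds 4 CCAAT boxes, 3 in the printed orientation and 1 on the other strand, and none of the other motifs searched.

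Like Hnrnph2, Hnrnpf, Hnrnpa3 and Hnrnpab, 9 further hnRNP genes were not called. Hnrnpk, which binds runs of cytosines, and Hnrnpu, a scaffold attachment factor, were among the most abundant, at 103.2 ± 2.57 and 115.5 ± 8.08 FPKM in fasted and 104.2 ± 1.26 and 123.3 ± 6.10 FPKM in ad libitum cortex (SD, n = 4 each). Hnrnpk had a log2 change of -0.01 with a 95% interval from -0.12 to 0.09. Hnrnpd, which encodes the AU-rich element binding protein AUF1, was among the steadiest genes within groups, at 20.6 to 21.4 FPKM in fasted and 20.5 to 20.8 FPKM in ad libitum libraries. Its paralogue Hnrnpdl averaged 61.9 ± 4.07 FPKM in fasted and 55.2 ± 2.15 FPKM in ad libitum cortex (SD, n = 4 each), with a log2 change of 0.16 (limma adjusted p = 0.0665). With the replicate block Hnrnpdl passed (adjusted p = 0.0122), as it did with median-ratio, quantile and equal-sum scaling and with GC and length offsets. Hnrnpl, known for binding repeats of cytosine and adenine, averaged 36.1 FPKM in fasted and 36.3 FPKM in ad libitum cortex, and its paralogue Hnrnpll 15.9 FPKM in fasted and 14.9 FPKM in ad libitum cortex. Hnrnpr averaged 10.8 FPKM in fasted and 10.9 FPKM in ad libitum cortex. Hnrnpul1 and Hnrnpul2, relatives of Hnrnpu, had log2 changes of 0.08 and -0.11, neither of them called. The summed level of the 20 hnRNP genes was 896.6 to 961.6 FPKM in fasted and 999.0 to 1021.9 FPKM in ad libitum libraries, without overlap. The 6 hnRNP genes called lower, a choice that fixes the direction, made up 255.3 to 291.9 FPKM of it in fasted and 347.1 to 361.2 FPKM in ad libitum libraries. Both sums are of values without scaling, and their separation depends on the scaling chosen. Median-ratio factors were 0.9644 to 1.02 in fasted and 0.9608 to 1.047 in ad libitum libraries. Divided by these, both sums would stay separate, that of all 20 genes only narrowly. Divided by the equal-sum factors, 0.8876 to 1.2607 in ad libitum libraries, both sums would overlap between the groups.

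Of the CLK genes, which encode dual-specificity kinases that phosphorylate the RS domains of SR proteins in the nucleus, Clk3 was called and the other 3 were not. Clk3 (chromosome 9, 57750624 to 57765860) was at 16.69, 14.56, 16.71 and 16.48 FPKM in fasted libraries, against 18.66, 18.57, 20.46 and 18.74 FPKM in ad libitum libraries. All fasted libraries were lower, and a single library stood apart in each group, fasted replicate 2 below and ad libitum replicate 3 above. The log2 change was -0.23 with SE 0.06 (limma adjusted p = 0.0141). Without ad libitum replicate 3 it was -0.20 and just failed the threshold (adjusted p = 0.0505), and with equal-sum scaling it was -0.11 (adjusted p = 0.497). Edc3 on the opposite strand shares 15.2% of the exon bases of Clk3, and was at 6.04 FPKM in fasted and 5.51 FPKM in ad libitum cortex (limma adjusted p = 0.191).

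Clk1 and Clk4 are close paralogues, whose transcripts are known to be kept in the nucleus in large part with introns retained. Clk1 was at 44.37, 34.22, 48.95 and 52.4 FPKM in fasted libraries, against 39.25, 40.62, 45.76 and 44.24 FPKM in ad libitum libraries. Fasted replicate 2 held the lowest and fasted replicate 4 the highest value of all 8, and the groups overlapped. With an SD of 7.89 FPKM in fasted cortex, 17.5% of the mean, it was the most variable of the 37 genes. Its log2 change was 0.07 with a 95% interval from -0.18 to 0.31 (limma adjusted p = 0.691). Clk4 was at 22.43, 19.19, 22.45 and 23.33 FPKM in fasted libraries, against 19.83, 21.89, 21.21 and 21.48 FPKM in ad libitum libraries. Fasted replicate 2 was again lowest, and the log2 change was 0.05 with a 95% interval from -0.10 to 0.19 (limma adjusted p = 0.633). Clk2 was at 7.48, 6.852, 6.916 and 6.905 FPKM in fasted libraries, against 7.104, 7.523, 7.139 and 6.234 FPKM in ad libitum libraries. Its values overlapped, with a log2 change of 0.01 (limma adjusted p = 0.932). The table also has a row for the readthrough of Clk2 into Scamp3, at 4.86 FPKM in fasted and 4.15 FPKM in ad libitum cortex, so how fragments were shared between these rows bears on the level of Clk2.

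The window before the RefSeq start of Clk3, the CLK gene with the largest change, lies at chr9:57765115-57765364 on the minus strand (RefSeq, GRCm38.p6), with the same motifs in capitals. A longer GENCODE M21 transcript has its first coding exon there, so the window precedes the RefSeq start and not that of every isoform.
Clk3: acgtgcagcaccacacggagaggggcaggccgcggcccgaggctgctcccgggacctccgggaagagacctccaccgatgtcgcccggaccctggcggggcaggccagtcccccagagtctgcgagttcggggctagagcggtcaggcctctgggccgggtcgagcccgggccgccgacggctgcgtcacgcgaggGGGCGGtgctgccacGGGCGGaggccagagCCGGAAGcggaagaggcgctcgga
It holds 2 GC boxes and the core of an ETS site, and 75.2% of its bases are G or C.

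Across the 34 of 37 genes with a window in the RefSeq table, 50.0% held a CCAAT box and 82.4% a GC box, where 36.2% and 60.5% of the 9420 windows of tested genes did. A CCAAT box was found in 5 of the 8 windows of genes called lower and in 2 of the 4 of genes called higher. An E-box was found in 3 of the 34 windows, a cAMP response element in 2, a TATA box in 3, a pair of heat shock units in 3 and the ETS core in 7. The shares among windows of tested genes were 8.7%, 2.9%, 5.9%, 4.7% and 13.6%. These are matches of letters, given as a description.

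Other features are given as a description of the 37 genes. In GENCODE M21, 25 of them (67.6%) have at least 1 transcript annotated as a target of nonsense-mediated decay, against 27.8% of the 11909 tested genes found in the annotation, and 28 (75.7%) have a retained-intron transcript, against 57.9%. Both kinds were annotated for 62.2% of the 37 genes, against 22.0% of the tested genes found in the annotation. By call, both were annotated for 3 of 4 genes called higher, 4 of 8 called lower and 16 of 25 not called. The 37 genes had a median of 9 annotated transcripts, against 5 over tested genes. The part of that number in these shares was not tested. Median GC content of the longest protein-coding transcript was 44.6%, against 50.1% over tested genes. It was 47.3% for the genes called higher, 44.8% for those called lower and 43.3% for the rest. Their median level in ad libitum cortex was 29.5 FPKM, against 8.33 FPKM over all tested genes. Exons of another annotated gene overlap those of 16 of the 37 genes, among them 4 of the 12 called.

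The spread between libraries limited what could be called. Within groups the coefficient of variation of the 37 genes was 5.0% at the median in fasted and 4.4% in ad libitum libraries. The 95% interval of a log2 change extended 0.13 to each side at the median. The 25 genes not called had log2 changes from -0.16 to 0.17. Their intervals lay within 0.25 on each side of 0 for 20 of the 25 genes and within 0.15 for 8, so that differences beyond those bounds lie outside the interval. The smallest change called was -0.16, and changes of that size lie inside the interval of many genes not called. The interval was widest for Clk1.

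Genes that act beside the SR proteins and hnRNPs were read from the same fit. In that fit 9.56% of all 12377 tested genes were called higher and 16.3% lower, and 4773 had an unadjusted p under 0.05. The replicate block called 1773 of the 12377 higher and 2733 lower, and leaving out ad libitum replicate 3 gave 841 and 1406. Counts of the lists under these settings stand beside those shifts of the whole table. Of 16 tested kinases and phosphatases of SR proteins 1 was called lower and 1 higher, with a median log2 change of 0.11. The lower one was Srpk1, which encodes the cytosolic kinase that phosphorylates SR proteins for import into the nucleus. Srpk1 was at 15.62, 14.3, 15.39 and 15.78 FPKM in fasted libraries, against 22.78, 22.06, 23.13 and 22.63 FPKM in ad libitum libraries. The groups were far apart, with a log2 change of -0.54 with SE 0.05 (limma adjusted p = 6.69e-05). The higher one was Dyrk3, a kinase that dissolves nuclear speckles in mitosis, at 5.22 FPKM in fasted and 3.33 FPKM in ad libitum cortex (log2 change 0.52). With the replicate block 5 of the 16 were higher and 2 lower, and without ad libitum replicate 3 the counts were 1 and 1. Of 5 transport factors limma called 0, also with the replicate block, and 1 had an unadjusted p under 0.05. That was Tnpo1, an import receptor of many hnRNPs, with a log2 change of 0.15 (limma adjusted p = 0.0893), and Tnpo2 had -0.11 (limma adjusted p = 0.207).

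Of 33 further proteins with an RS domain 3 were higher and 4 lower, with a median log2 change of 0.02. Scaf11 and Bclaf1 rose by 0.31 and 0.30, at 8.50 and 32.2 FPKM in fasted and 6.64 and 26.0 FPKM in ad libitum cortex. Luc7l, the counterpart of a yeast U1 snRNP protein, was at 17.2 FPKM in fasted and 20.4 FPKM in ad libitum cortex (log2 change -0.24). With the replicate block 5 were higher and 6 lower, and without ad libitum replicate 3 there were 2 higher and 2 lower. Among 22 proteins of the hnRNP class that carry other symbols 1 was higher and 4 lower, with a median of 0.01. The block gave 2 higher and 5 lower, and the fit without ad libitum replicate 3 gave 1 and 3. Taf15 and Sfpq, which encode RNA-binding proteins with low-complexity domains, had log2 changes of -0.32 and -0.40, and Ptbp2, the neuronal polypyrimidine tract-binding protein, rose by 0.22. Sfpq was at 48.3 ± 5.21 FPKM in fasted and 63.9 ± 4.54 FPKM in ad libitum cortex (SD, n = 4 each).

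Of 30 tested genes in a list of tissue splicing regulators 3 were higher and 8 lower, with a median of -0.07. The block gave 3 higher and 10 lower. Without ad libitum replicate 3 there were 3 higher and 5 lower, and Celf2, Celf5 and Elavl2 lost their call (adjusted p = 0.0629, 0.0653 and 0.110 by limma). Srrm4, which drives the inclusion of neuronal microexons, was at 9.97 FPKM in fasted and 7.002 FPKM in ad libitum cortex (log2 change 0.46, limma adjusted p = 0.000485). Khdrbs3 and the broadly expressed Fubp1 had log2 changes of -0.47 each, with Khdrbs3 at 60.6 FPKM in fasted and 84.3 FPKM in ad libitum cortex. Of 62 core spliceosome genes 6 were higher and 7 lower, against 14 and 10 with the replicate block and 3 and 4 without ad libitum replicate 3. Sf3b1, which encodes a subunit of the U2 snRNP, rose by 0.27, and Lsm4 had a log2 change of -0.30. Of 17 genes of nonsense-mediated decay and the exon junction complex 1 was higher, Upf3b with 0.27, and 1 lower, the cap-binding subunit gene Ncbp2 with -0.37. With the replicate block 3 were higher and 1 lower, and without ad libitum replicate 3 the counts stayed at 1 and 1.

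**Figure D5:**
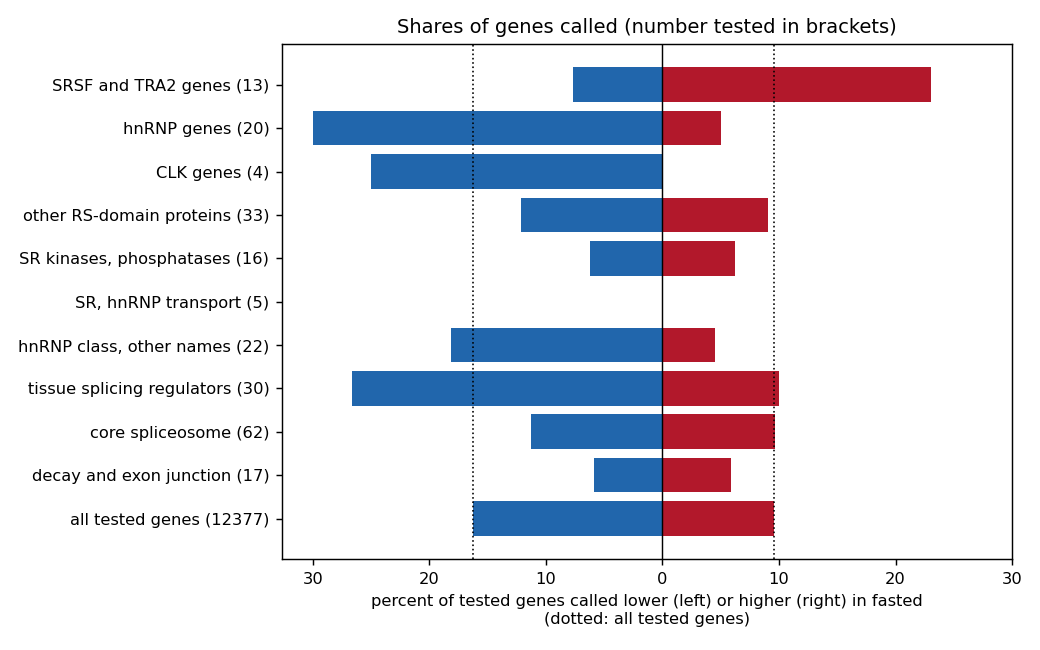
Share of tested genes called lower (left) and higher (right) in fasted cortex for the SRSF and TRA2, hnRNP and CLK genes and for 7 lists of related genes, with the number tested in brackets; dotted lines mark the shares over all tested genes, 16.3% and 9.56%. The hnRNP genes (6 of 20) and the tissue splicing regulators (8 of 30) reach furthest to the left, and the SRSF and TRA2 genes (3 of 13) furthest to the right.

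The label of the tissue was checked against markers. Among all 12377 tested genes 9.56% were called higher and 16.3% lower, and several marker counts below lie near those shares. At an unadjusted limma p under 0.05 there were 4773 of the 12377. The replicate block called 1773 of the 12377 higher and 2733 lower, and leaving out ad libitum replicate 3 gave 841 and 1406. All 10 markers of excitatory and all 10 of inhibitory neurons were tested, while 4 of 6 markers of choroid plexus and ependyma stayed under 1 FPKM in every library. Of the neuronal markers 5 of 10 excitatory ones were lower, with a summed level of 1740 to 2011 FPKM in fasted and 1705 to 2132 FPKM in ad libitum libraries, and limma called 0 of the inhibitory ones, with 1 at an unadjusted p under 0.05 and 1 higher under the replicate block. Microglial markers were lower in 5 of 10 cases, with a summed level of 116.5 to 134.5 FPKM in fasted and 130.7 to 183.0 FPKM in ad libitum libraries. Endothelial and mural markers were lower in 2 of 9 cases, at 44.6 to 52.5 FPKM in fasted and 54.6 to 62.7 FPKM in ad libitum libraries, and markers of oligodendrocyte precursors in 3 of 6, at 61.5 to 70.7 FPKM in fasted and 69.98 to 78.7 FPKM in ad libitum libraries. Astrocyte markers were higher in 1 and lower in 3 of 10 cases, and oligodendrocyte markers higher in 2 and lower in 1 of 10. Of 4 tested markers of meningeal fibroblasts 1 was lower. The 1 tested marker of choroid plexus and ependyma and the 2 of leukocytes and blood had 0 calls and 0 at an unadjusted p under 0.05 by limma. Of 8 long non-coding RNAs kept in the nucleus 0 were higher and 1 lower, with sums of 1004 to 1258 FPKM in fasted and 1016 to 1189 FPKM in ad libitum libraries. With the replicate block 7 microglial and 3 endothelial and mural markers were lower, astrocyte markers were higher in 2 and lower in 3 cases and oligodendrocyte markers higher in 3 and lower in 2, and the nuclear RNAs numbered 1 higher and 2 lower. Without ad libitum replicate 3 the lower markers fell to 2 excitatory, 4 microglial, 2 astrocyte and 2 oligodendrocyte precursor ones, and the 1 nuclear RNA lost its call. Lower endothelial and mural, oligodendrocyte and fibroblast markers stayed at 2, 1 and 1 in that fit. The part of such shifts in the changes of the splicing genes was not tested, and in homogenised tissue fewer cells of a type and less RNA per cell cannot be told apart.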

How the data were processed

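Deposited FPKM values per gene, made by the authors, were used for 8 libraries, 4 per group. Per the submitters' processing notes reads were processed with TopHat on mm10; how fragments were counted, on which annotation and with what use of strand is not given in the sources. The table has 24883 rows, 821 of them on 282 repeated symbols, and for these only the row of highest mean entered. FPKM are not counts, so no count model was used. Genes with at least 1 FPKM in at least 4 libraries were tested on log2(FPKM + 1) with limma 3.58.1 (trend and robust, R 4.3.3), and p-values were adjusted by Benjamini-Hochberg over all 12377 genes tested, with 0.05 as the threshold. The added 1 understates the change of low genes. Tables and figures were made with Python 3.11.15, pandas 2.3.3 and matplotlib 3.10.9. The fit was tested on simulated data with noise drawn separately for each library. That test does not cover effects shared by libraries with the same replicate number.

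Per-library values were given for all called genes whose groups did not overlap and for the CLK genes, other genes by range and by nearness to the threshold, and up to 3 called genes per list by smallest p. For 1 list, 1 gene so chosen is not reported here. The genes and lists were chosen with earlier results of these data known. Libraries that share a replicate number deviated together over all tested genes, with correlations of 0.574, 0.496, 0.382 and 0.523 for replicates 1 to 4, and 0.335, 0.193, 0.076 and 0.371 over autosomal protein-coding genes. The pairing rests on these numbers in the labels, and a fit with the replicate number as a block is given beside the unblocked one where it changes a call or a list's count. Gene positions and transcript types are from GENCODE M21. The 20 alternatives comprised pseudocounts, filters, scalings, offsets for GC content and length, the block, a term for odd and even numbers, plain moderation and leaving out each library.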

Additional observations from a re-analysis of the deposited data

Results flagged for a closer look

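In 7 of the 74 sets of 4 libraries checked, 1 library stood apart from the other 3 by Dixon's criterion. Chance alone flags about 1 in 20 such sets. Clk3 had a library apart in each group, with 14.56 FPKM in fasted replicate 2, against 16.48 to 16.71 FPKM in the other fasted libraries, and 20.46 FPKM in ad libitum replicate 3, against 18.57 to 18.74 FPKM in the other fed libraries. Clk2 was at 7.48 FPKM in fasted replicate 1 and at 6.852 to 6.916 FPKM in the others of its group. Ad libitum replicate 4 was lowest of its group for 3 genes: Hnrnpa0 at 24.85 FPKM, where the others held 27.26 to 27.66 FPKM; Srsf6 at 19.59 FPKM, where the others held 22.97 to 23.01 FPKM; and Hnrnpk at 102.3 FPKM, where the others held 104.6 to 104.9 FPKM. Hnrnpf was at 38.95 FPKM in ad libitum replicate 2 and at 36.88 to 37.13 FPKM in the other fed libraries.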

How the results depend on the processing

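Of the 240 values of the 12 called genes under the 20 alternatives, 207 kept their direction and their side of the threshold, 33 lost the call and 0 turned their direction. Of the 499 values of the 25 genes not called, 22 passed the threshold and 46 turned their sign. Genes called higher numbered 4 of the 37 and were 2 with no filter, 7 with median-ratio scaling, and 8 with GC and length offsets, with or without the replicate block. Genes called lower numbered 8 and were 4 with equal-sum scaling. Leaving out 1 library gave 1 to 3 higher and 6 to 9 lower genes. Over all tested genes 1183 were higher and 2015 lower; the higher ones were 1792 with quantile normalization, 2268 with GC and length offsets and 2597 with these and the block, and the lower ones 1321 with a mean of at least 5 FPKM, where 8275 genes were tested, and 534 with equal-sum scaling. Leaving out 1 library gave 841 to 1196 higher and 1406 to 2572 lower. Equal-sum scaling moved the median log2 change of all tested genes to 0.08, against -0.02 without scaling, and ad libitum replicate 2 had 24.08% of its FPKM in 10 rows. With the replicate block 1773 genes were higher and 2733 lower over all tested genes, 6 and 9 among the 37; it added Srsf6, Srsf7 and Hnrnpdl and changed no other call among them. The cause of the other changes was not tested.

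The signs that turned belong to genes that were not called. With median-ratio scaling they were 0.0285 for Hnrnph2, 0.0157 for Hnrnpk, 0.0187 for Hnrnpl, 0.0150 for Hnrnpr and 0.0061 for Srsf1. With quantile normalization they were 0.0430, 0.0179, 0.0188, 0.0057 and 0.0008 for the same genes, Hnrnph2, Hnrnpk, Hnrnpl, Hnrnpr and Srsf1. With equal-sum scaling they were 0.0038 for Hnrnpab, 0.0653 for Hnrnpf, 0.1244 for Hnrnph2, 0.1121 for Hnrnpk, 0.1132 for Hnrnpl, 0.1035 for Hnrnpr, 0.0307 for Hnrnpu, 0.0150 for Hnrnpul2, 0.0999 for Srsf1 and 0.0144 for Tnpo2. With GC and length offsets, with or without the replicate block, they were 0.0499 for Hnrnph2, 0.0417 for Hnrnpk, 0.0110 for Hnrnpl and 0.0153 for Srsf1. Leaving out 1 library gave log2 changes from -0.0110 to 0.1891 for Clk1, -0.0389 to 0.0400 for Clk2, -0.0040 to 0.0356 for Hnrnpa3, -0.0218 to 0.0192 for Hnrnph2, -0.0256 to 0.0002 for Hnrnpk, -0.0364 to 0.0186 for Hnrnpl, -0.0363 to 0.0119 for Hnrnpr, -0.0472 to 0.0021 for Srsf1, -0.0120 to 0.0815 for Srsf10 and -0.0629 to 0.1066 for Srsf9.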
